A study of Homo sapiens with 60 samples.

Results

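The genes described are 8 enzymes of asparagine synthesis, serine synthesis and mitochondrial one-carbon metabolism: ASNS, PHGDH, PSAT1, PSPH, SHMT2, MTHFD2, ALDH1L2 and PCK2. They were picked by name from a table of 60675 gene identifiers, each matched 1 identifier, and all 8 were among the 17765 genes with enough counts to be tested. The measurement was messenger RNA sequencing of A549 cells, a human lung adenocarcinoma line, 24 h after treatment. The 60 libraries fall into 25 groups, and all of them are untransfected A549 cells with no genetic change named in the labels.

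The treatments were ethanol extracts of Glycyrrhizae Radix (licorice root), Panax Ginseng, Poria Cocos and Atractylodis Rhizoma with 3 libraries per dose, and of Angelicae Gigantis Radix and Paeoniae Radix with 1 library per dose. The other two of the 8 extracts were multi-herb formulas extracted with water, Sibjeondaebo-tang with 3 libraries per dose and Palmul-tang with 2. The low dose was 20, the medium dose 100 and the high dose 500 µg/mL of every extract, and a vehicle group received DMSO (n = 3). The library labels give 0.1% DMSO, whereas the series text gives 2%, and it also says that extracts with a 20% inhibitory concentration under 500 µg/mL were given at lower doses, so the doses are those of the labels. Between 18602541 and 29764378 counts were assigned to genes per library. Mitochondrially encoded genes took 14.5% to 25.9% of the counts. Genes with counts above 0 numbered 21679 to 23442 per library, except for 27991 in replicate 3 of low-dose Poria. Whether replicate libraries stem from separate cultures is not stated in the labels, so each p-value measures the spread between these libraries, which may be technical, and fewer cells of a kind and less RNA per cell cannot be told apart in bulk RNA.

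Cells build serine from a glycolytic intermediate in a short chain in which PHGDH oxidises phosphoglycerate, PSAT1 adds an amino group taken from glutamate, and PSPH removes the phosphate. Serine then enters the mitochondrion, where SHMT2 splits it into glycine and a one-carbon unit carried on tetrahydrofolate, MTHFD2 oxidises that unit and ALDH1L2 can burn it to carbon dioxide while making NADPH. ASNS makes asparagine from aspartate and glutamine, and PCK2 turns oxaloacetate into phosphoenolpyruvate inside the mitochondrion. In mammalian cells, many of these genes are known targets of ATF4, a transcription factor whose translation increases when amino acids run short or the endoplasmic reticulum is stressed.

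The ASNS promoter is shown because a binding element for ATF4 and C/EBP partners is well known there. In the RefSeq sequence (GRCh38.p14, chr7:97872439-97872506, minus strand), the 8 capitals mark the match to TGATGNAA, from -68 to -61 counted from the annotated transcript start.

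ASNS: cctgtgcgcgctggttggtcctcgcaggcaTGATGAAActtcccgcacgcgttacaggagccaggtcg

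The pattern was searched on both strands in windows of 250 bases before to 50 bases after each start. It was in 1270 of all 35116 windows (3.62%), and in 1 of the 6 windows given for ASNS, PHGDH, PSAT1, MTHFD2 and PCK2, the one printed. A match is a description of letters only, and the windows without one say nothing of sites elsewhere.

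At high-dose Glycyrrhizae all 8 genes were higher than at low dose. ASNS and PCK2 changed by the widest factors (7.08-fold and 6.43-fold), PHGDH by 4.85-fold, MTHFD2, ALDH1L2 and PSAT1 by 3.19-fold to 3.29-fold, and SHMT2 and PSPH by 1.93-fold and 1.65-fold. All tests across genes are the quasi-likelihood test of edgeR, called at a Benjamini-Hochberg adjusted p under 0.05 over the 17765 genes, log2 changes are given ± SE, and levels are in CPM, counts scaled to the same library size. Of all genes tested 18.5% were higher at high-dose Glycyrrhizae by this test and 18.4% lower, and for 22.6% every high-dose library was above every low-dose library, as it was for all 8 enzymes. The members' median log2 change was 1.72, against 0.00 over all genes tested, and by size of rise ASNS stood at place 60, PCK2 at 69 and PHGDH at 101 of the 17765 genes.

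**Figure D1:**
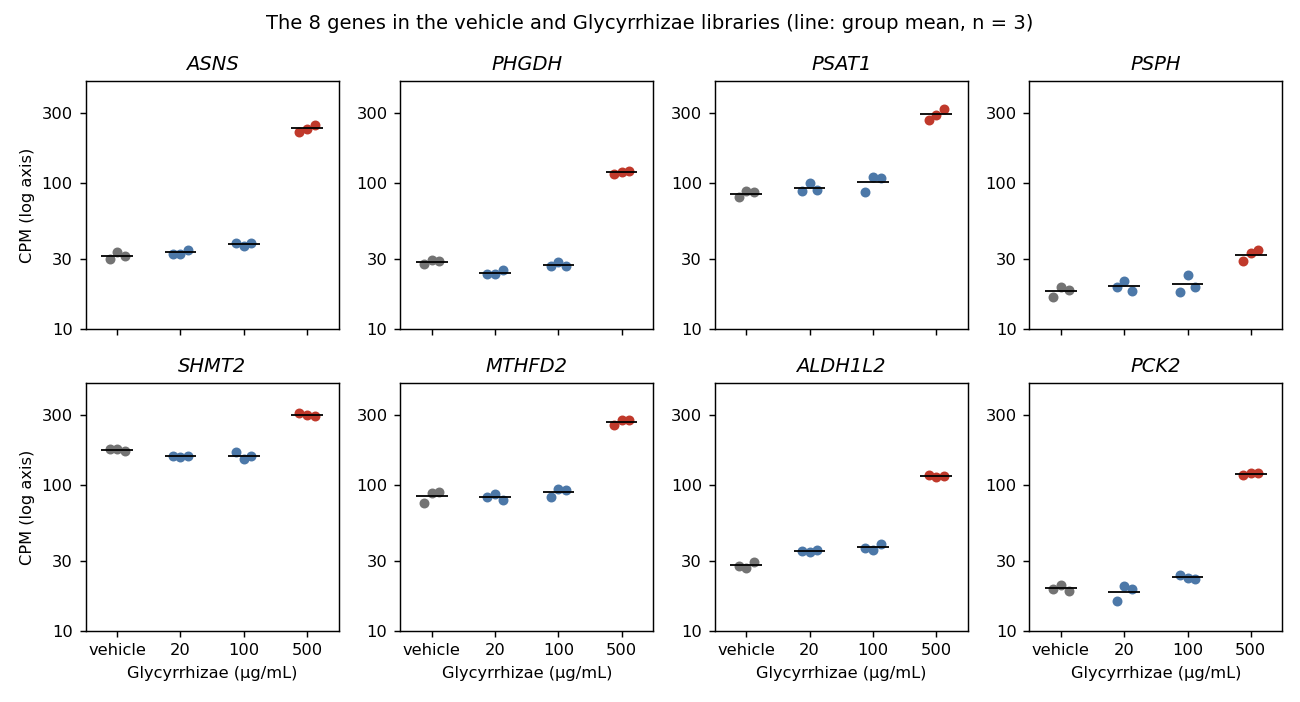
Level of each of the 8 genes (CPM, log axis) in the vehicle libraries and the Glycyrrhizae libraries at 20, 100 and 500 µg/mL. Points are libraries (n = 3 per group) and lines are group means. In every panel the 3 libraries at 500 µg/mL sit above all others.

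ASNS (ENSG00000070669, chromosome 7, 97852118 to 97872542, minus strand, GRCh38 as in GENCODE 29), which makes asparagine, had 225, 234 and 250.3 CPM at high-dose Glycyrrhizae and 32.8, 32.7 and 34.8 CPM at low dose. The lowest high-dose library was far above the highest low-dose library, and the vehicle libraries (30.1, 33.6 and 31.4 CPM) lay beside the low dose. The change was 2.82 ± 0.05 on the log2 scale (edgeR's quasi-likelihood test, Benjamini-Hochberg adjusted p = 2.4e-38), with group means of 237 ± 12.6 and 33.4 ± 1.21 CPM (SD, n = 3 each). ASNSD1, a relative of ASNS with an asparagine synthetase domain, had 36.6 ± 1.01 CPM at high dose and 37.5 ± 1.21 CPM at low dose (SD, n = 3 each) and was not called (log2 change -0.03 ± 0.05, edgeR adjusted p = 0.678).

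The serine chain was higher at all 3 steps, by unequal amounts. PHGDH (ENSG00000092621, chromosome 1, 119648411 to 119744226, plus strand), the first step, had 116, 118 and 119.6 CPM at high-dose Glycyrrhizae and 23.7, 23.9 and 25.3 CPM at low dose. The groups were far apart, with a log2 change of 2.28 ± 0.04 (edgeR adjusted p = 6.3e-37). PSAT1 (ENSG00000135069, chromosome 9, 78297143 to 78330093, plus strand), the aminotransferase, had 270.3, 293 and 323 CPM at high dose against 88.1, 100.1 and 89.9 CPM at low dose, without overlap. Its log2 change was 1.67 ± 0.07 (edgeR adjusted p = 1.05e-23). PSPH (ENSG00000146733, chromosome 7, 56011051 to 56051604, minus strand), the phosphatase that ends the chain, had 29.3, 32.9 and 34.6 CPM at high dose and 19.3, 21.1 and 18.2 CPM at low dose. Here too every high-dose library was above every low-dose library, but the log2 change of 0.72 ± 0.10 was the smallest of the 8 (edgeR adjusted p = 5.95e-08).

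The mitochondrial folate enzymes were higher as well. SHMT2 (ENSG00000182199, chromosome 12, 57229327 to 57234935, plus strand), which moves a one-carbon unit from serine to tetrahydrofolate, had 311, 299.7 and 297 CPM at high-dose Glycyrrhizae and 158, 155 and 158 CPM at low dose. It changed by 0.95 ± 0.04 (log2, edgeR adjusted p = 1.57e-22), and its low-dose libraries lay below the vehicle libraries (177, 177 and 170.3 CPM). MTHFD2 (ENSG00000065911, chromosome 2, 74198562 to 74217565, plus strand), the dehydrogenase and cyclohydrolase that follows, had 257, 280.0 and 279 CPM at high dose and 82.3, 87.3 and 78.3 CPM at low dose. The libraries of the high dose stood well apart from the rest, with a log2 change of 1.72 ± 0.05 (edgeR adjusted p = 1.32e-28). ALDH1L2 (ENSG00000136010, chromosome 12, 105019784 to 105084577, minus strand), the formyl-tetrahydrofolate dehydrogenase of mitochondria, had 118, 114 and 116 CPM at high dose and 35.2, 34.9 and 35.6 CPM at low dose. The spread within each dose was small beside the gap, and the log2 change was 1.72 ± 0.05 (edgeR adjusted p = 1.46e-29).

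ALDH1L2 overlaps NOPCHAP1 on the opposite strand, and the strand setting of the counting is not given in the sources used here, so reads of this pair may be shared. NOPCHAP1 had 17.5 ± 0.287 CPM at high dose and 13.6 ± 1.38 CPM at low dose (SD, n = 3 each), a log2 change of 0.36 ± 0.12 (edgeR adjusted p = 0.0152), which in CPM is far below the gain of ALDH1L2. The other overlapping genes had at most 5.03% of the member's counts in any library, and the processed pseudogenes of ASNS, PSAT1, MTHFD2 and PSPH had at most 2 counts.

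PCK2 (ENSG00000100889, chromosome 14, 24094053 to 24110598, plus strand), the mitochondrial phosphoenolpyruvate carboxykinase, had 117, 120.1 and 121 CPM at high-dose Glycyrrhizae and 16, 20.4 and 19.3 CPM at low dose. No other gene among the 8 but ASNS changed by as much (log2 change 2.68 ± 0.07, edgeR adjusted p = 1.05e-31). PCK1, its cytosolic counterpart, had at most 6 counts in any of the 60 libraries and was too low to test. Scaled by the length of annotated exons, the mean levels at high-dose Glycyrrhizae ran from 135 CPM per kb for PSAT1, over 62.5 for SHMT2, 55.8 for MTHFD2, 53.1 for ASNS and 28.5 for PCK2, to 13.6 for ALDH1L2, 12.8 for PHGDH and 11.7 for PSPH. At low dose PSAT1 and SHMT2 also led (42.4 and 32.5 CPM per kb), and PHGDH was the lowest (2.64 CPM per kb). The length used joins all annotated exons of a gene, from 2.188 kb for PSAT1 to 9.217 kb for PHGDH. Transcripts present in these cells may be shorter, so this order depends on the annotation and is no measure of transcript number.

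Every one of the 8 genes was also higher at high than at medium dose of Glycyrrhizae, in a comparison where 18.0% of all genes tested were higher. The log2 changes were 2.63 for ASNS, 2.35 for PCK2, 2.10 for PHGDH, 1.64 for ALDH1L2, 1.60 for MTHFD2, 1.54 for PSAT1, 0.93 for SHMT2 and 0.67 for PSPH, with edgeR adjusted p from 6.65e-37 to 3.4e-07. Between medium and low dose the differences were small. PCK2 alone was called higher there, beside 0.180% of all genes tested, with 24.2, 23.1 and 22.8 CPM at medium dose and 16, 20.4 and 19.3 CPM at low dose (log2 change 0.33 ± 0.08, edgeR adjusted p = 0.0147). That call was lost without the low-dose library at 16 CPM (adjusted p = 0.253), without medium replicate 1 (0.075) or replicate 2 (0.0541), and when only the compared groups were fitted (0.789). ASNS (38.1 ± 1.2 CPM at medium and 33.4 ± 1.21 CPM at low dose, SD, n = 3 each) and PHGDH (27.6 ± 1.2 and 24.3 ± 0.902 CPM) were closest among the others but missed the threshold (edgeR adjusted p = 0.077 and 0.0524). With the replicate number as a block both were called (adjusted p = 0.0307 and 0.0254), which made 3 of the 8. Among all genes tested that block called 209 in either direction, in place of 140.

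The relatives of the 8 enzymes did not all move with them at high-dose Glycyrrhizae. Of the 7 relatives listed, which include ASNSD1 and PCK1, 6 could be tested, and MTHFD1L was called higher and SHMT1, MTHFD1 and ALDH1L1 lower. In this comparison 18.5% of all genes tested were higher and 18.4% lower. SHMT1, the cytosolic counterpart of SHMT2, had 137, 134 and 136 CPM at high dose and 225, 219 and 229 CPM at low dose, so the groups were apart in the other direction. Its log2 change was -0.72 ± 0.04 (edgeR adjusted p = 1.69e-21), and at medium dose it was already lower than at low dose (196 ± 3.97 and 225 ± 4.93 CPM, SD, n = 3 each, log2 change -0.20 ± 0.04, edgeR adjusted p = 0.000629). MTHFD1, the cytosolic enzyme that carries out several folate steps on 1 polypeptide, fell by 0.30 ± 0.04 on the log2 scale (144 ± 5.49 CPM at high and 177 ± 8.38 CPM at low dose, SD, n = 3 each, edgeR adjusted p = 2.66e-07).

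MTHFD1L, the mitochondrial synthetase that releases formate, had 37, 42.3 and 41.9 CPM at high-dose Glycyrrhizae against 25.4, 27.6 and 25.2 CPM at low dose and rose by 0.63 ± 0.06 (log2, edgeR adjusted p = 3.96e-13). MTHFD2L, a mitochondrial relative of MTHFD2, stayed near 10 CPM (9.74 ± 0.723 at high and 9.78 ± 0.26 at low dose, SD, n = 3 each) and was not called (log2 change -0.00 ± 0.08, edgeR adjusted p = 0.983). ALDH1L1, the cytosolic counterpart of ALDH1L2, was present at 1.22 to 2.32 CPM in the 9 Glycyrrhizae libraries. It was called lower (log2 change -0.48 ± 0.18, edgeR adjusted p = 0.0341), a call that was lost with DESeq2 (adjusted p = 0.1), without the filter on low counts (0.128), when only the compared groups were fitted (0.0597) and without 5 of the 6 libraries compared, each left out in turn (from 0.0537 to 0.133).

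**Figure D2:**
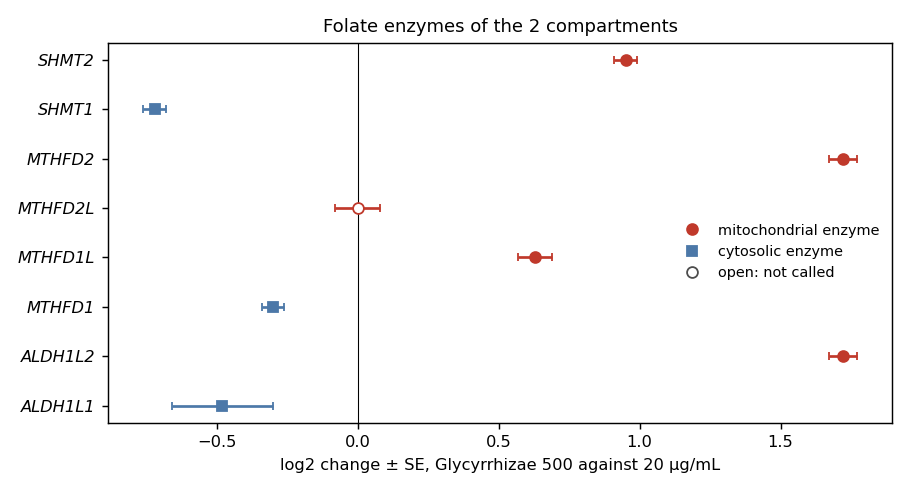
Log2 change at 500 against 20 µg/mL Glycyrrhizae (points, bars ± SE) for folate enzymes, with mitochondrial enzymes as circles and cytosolic ones as squares. SHMT2, MTHFD2, MTHFD1L and ALDH1L2 lie right of 0, SHMT1, MTHFD1 and ALDH1L1 left of it, and MTHFD2L, the open circle, lies at 0.

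Around these enzymes the changes at high-dose Glycyrrhizae were mixed, where 18.5% of all genes tested were higher and 18.4% lower. The counts per list that follow stand beside these shares and were not tested against them. Of 18 listed genes of glycine cleavage, folate handling and serine use, 3 were higher and 5 lower, with a median log2 change of -0.01. GLDC, which breaks glycine down in mitochondria, had 46.8 ± 1.3 CPM at high dose and 95.2 ± 4.25 CPM at low dose (SD, n = 3 each, log2 change -1.03 ± 0.05, edgeR adjusted p = 9.85e-21). SDS, the serine dehydratase, was lower too (-0.54 ± 0.12), while FPGS, which adds glutamates to folates, and SFXN3, a sideroflexin of the family that carries serine into mitochondria, were higher by 0.34 ± 0.06 and 0.28 ± 0.06. In the methionine and transsulfuration list 2 of 7 tested genes were higher and 0 lower. CBS, which condenses serine with homocysteine, had 62.7 ± 2.03 CPM at high dose and 15.8 ± 0.536 CPM at low dose (SD, n = 3 each, log2 change 1.99 ± 0.09, edgeR adjusted p = 1.24e-22), and MAT2A, which makes S-adenosylmethionine, rose by 0.30 ± 0.05. Of 6 genes of purine synthesis, a pathway that uses formyl-tetrahydrofolate at some of its steps, GART alone was higher (0.44 ± 0.04) and 0 were lower.

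Among 11 tested genes of aspartate, glutamine and alanine metabolism 3 were higher and 6 lower, beside 18.5% and 18.4% of all genes tested. ASRGL1, an enzyme that breaks down asparagine, had 25.3 ± 0.35 CPM at high-dose Glycyrrhizae and 61.1 ± 4.83 CPM at low dose (SD, n = 3 each, log2 change -1.27 ± 0.05, edgeR adjusted p = 5.86e-25). ASS1, which joins citrulline to aspartate, and GPT2, the mitochondrial alanine aminotransferase, rose by 1.11 ± 0.06 and 1.10 ± 0.07, and GLUL, which makes glutamine, fell by 0.34 ± 0.04. All 5 proline genes changed, 3 higher and 2 lower. PYCR1, a mitochondrial enzyme of the last step to proline, rose by 1.39 ± 0.06 (129 ± 1.66 CPM at high and 49.1 ± 3.08 CPM at low dose, SD, n = 3 each) and ALDH18A1, the first step, by 0.25 ± 0.05, whereas PYCR3, the cytosolic form, and OAT, the ornithine aminotransferase, fell by 0.55 ± 0.08 and 0.33 ± 0.07. Near PCK2 in the phosphoenolpyruvate list, 2 of 8 tested genes were higher and 4 lower. PC, PKM and ENO1 fell by 0.49 ± 0.05, 0.40 ± 0.05 and 0.37 ± 0.06, and ME1, the malic enzyme, rose by 0.31 ± 0.04. The edgeR adjusted p of the genes in this and the preceding paragraph given without one ran up to 0.000309.

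Of 19 listed regulators of the amino acid and stress response, 12 were higher and 1 lower at high-dose Glycyrrhizae. Among all genes tested 18.5% were higher and 18.4% lower there. ATF4 had 393, 383 and 389 CPM at high dose and 192, 176 and 188 CPM at low dose, a log2 change of 1.07 ± 0.05 (edgeR adjusted p = 2.98e-22). Its vehicle libraries (226, 227 and 206 CPM) were above the low dose and below the high dose. DDIT3, which encodes the stress factor CHOP, had 24.7, 25.9 and 24.5 CPM at high dose and 5.4, 5.68 and 5.87 CPM at low dose (log2 change 2.14 ± 0.09, edgeR adjusted p = 4.73e-24). TRIB3, a pseudokinase known as an ATF4 target, and PPP1R15A, a phosphatase subunit that acts on the initiation factor eIF2, rose by 1.98 ± 0.06 and 1.42 ± 0.06 (edgeR adjusted p = 3.05e-30 and 4.26e-24). At medium against low dose ATF4 and DDIT3 were not called (log2 change -0.01 ± 0.05 and 0.05 ± 0.10).

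Other properties of the high-dose Glycyrrhizae libraries moved as well. Of 5 epithelial markers, 4 were lower (KRT8, KRT18, CDH1 and EPCAM, log2 changes of -0.78, -0.58, -0.43 and -0.30), beside 18.4% of all genes tested. KRT7, the remaining marker, was not called lower and had 1680 to 3680 CPM over the 60 libraries. That range does not show its direction at high-dose Glycyrrhizae, which is not given here. The summed level of the list was 6350 to 6810 CPM at high dose and 8650 to 9110 CPM at low dose. The summed immune markers were at 3.3 to 3.99 CPM at high dose and 2.36 to 2.91 CPM at low dose, nearly all of it CD14, with PTPRC at 0 in 53 and CD3E at 0 in 54 of the 60 libraries. Fibroblast markers summed to 9.09 to 9.48 CPM at high and 14.3 to 16.6 CPM at low dose, endothelial ones to at most 0.542 CPM in any library. The alveolar markers SFTPC, SFTPB and NKX2-1, which mark cells of the alveolus, summed to at most 2.2 CPM in any library. Mitochondrially encoded genes took 19.2% to 22.8% of counts at high dose and 16.3% to 21.5% at low dose. The part of these shifts in the results for the 8 enzymes was not tested.

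With the other 5 replicated extracts the 8 genes differed little between high and low dose, and the calls that were made fell on a few of them. The plot of log2 changes by extract shows the contrast with Glycyrrhizae. With Poria, 3 of 8 genes were higher, beside 1.06% of all genes tested (275 genes called in either direction, and 459 with the replicate number as a block, which called the same 3). PHGDH had 31.8, 32.2 and 30.2 CPM at high dose and 25.3, 25.2 and 26.7 CPM at low dose (log2 change 0.29 ± 0.05, edgeR adjusted p = 0.000157). SHMT2 had 197, 192 and 185 CPM at high dose and 156, 175 and 171 CPM at low dose (0.19 ± 0.04, edgeR adjusted p = 0.00929), and MTHFD2 had 101, 99.2 and 99.4 CPM against 86.2, 86.5 and 86.3 CPM (0.21 ± 0.05, edgeR adjusted p = 0.0315). The groups did not overlap for any of the 3, where 9.96% of all genes tested had every high-dose library above every low-dose one, but the MTHFD2 call was lost without any 1 of the 6 libraries (adjusted p from 0.0755 to 0.138). The SHMT2 call was lost without high replicate 1 (0.0905) or low replicate 1 (0.143), and when only the compared groups were fitted (0.143). Low replicate 3, the library with 27991 genes above 0, is in these comparisons. Its part in them was not tested beyond leaving it out.

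**Figure D3:**
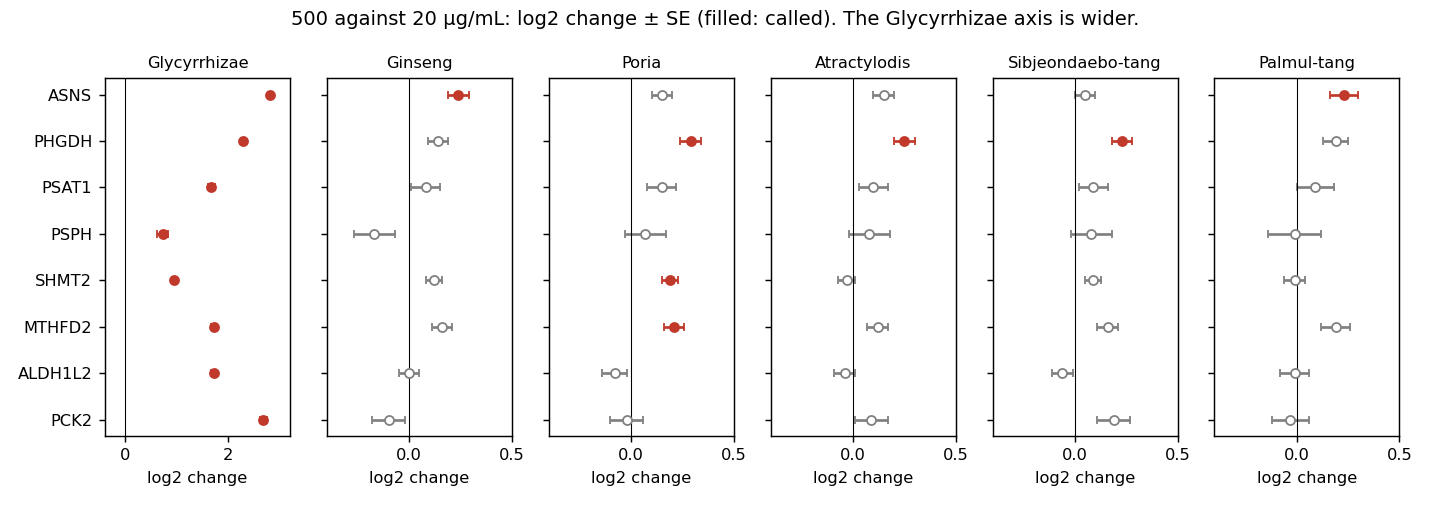
Log2 change of the 8 genes at 500 against 20 µg/mL (points, bars ± SE) for the 6 replicated extracts, filled where called at an adjusted p under 0.05. The Glycyrrhizae panel reaches 2.82 and has a wider axis, while every change in the other panels lies between -0.17 and 0.29.

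PHGDH was the called gene in Atractylodis and Sibjeondaebo-tang as well. With Atractylodis, where 0.113% of all genes tested were higher, it had 28.2, 28.2 and 27 CPM at high dose and 23.7, 23.1 and 23.5 CPM at low dose (log2 change 0.25 ± 0.05, edgeR adjusted p = 0.00519). The call did not hold without high replicate 2 (adjusted p = 0.066), without low replicate 2 (0.0602), without the filter on low counts (0.063) or when only the compared groups were fitted (0.153). With Sibjeondaebo-tang, where 2.35% of all genes tested were higher, PHGDH had 28.8, 28.5 and 28.3 CPM at high dose and 25.6, 24 and 23.4 CPM at low dose, a log2 change of 0.23 ± 0.05 (edgeR adjusted p = 0.00176, or 0.0735 when only the compared groups were fitted). In both extracts PHGDH was the 1 gene of 8 called. Its high-dose means, 27.8 ± 0.673 CPM with Atractylodis and 28.5 ± 0.295 CPM with Sibjeondaebo-tang, were not above the vehicle. The vehicle had 28.7 ± 0.999 CPM (SD, n = 3 each), so these calls describe high against low dose only.

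ASNS was the called gene with Ginseng and Palmul-tang, again 1 of 8. With Ginseng, where 0.552% of all genes tested were higher, ASNS had 37.1, 38.1 and 38.1 CPM at high dose and 31, 32.2 and 33 CPM at low dose (log2 change 0.24 ± 0.05, edgeR adjusted p = 0.00985). That call was lost without low replicate 1 (adjusted p = 0.0744) and when only the compared groups were fitted (0.211). With Palmul-tang, where 1.29% of all genes tested were higher, ASNS had 36.7 and 34 CPM at high dose and 30.2 and 30 CPM at low dose. Its adjusted p was 0.0488 by edgeR's quasi-likelihood test (log2 change 0.23 ± 0.07), and leaving out any 1 of these 4 libraries raised it to between 0.0812 and 0.411. It was 0.192 without the filter on low counts and 0.0692 when only the compared groups were fitted. ALDH1L2 was called in none of the 5 extracts, with log2 changes from -0.08 to 0.00, and neither was PCK2 (-0.10 to 0.19), PSAT1 (0.08 to 0.15) or PSPH (-0.17 to 0.08).

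At medium against low dose, 0 of 8 genes were called in any of these 5 extracts by edgeR's quasi-likelihood test, by DESeq2 or under any other setting tried, and the share of all genes tested called in either direction was 0% in 4 of the extracts and 0.0788% in Sibjeondaebo-tang. Without the filter on low counts the genes called among all were 44 in Ginseng, 59 in Poria, 51 in Atractylodis, 64 in Palmul-tang and 86 in Sibjeondaebo-tang, where the filtered fit had 14. At an unadjusted p under 0.05 there were 0 of the 8 in Ginseng, 1 in Poria, 2 in Atractylodis, 2 in Sibjeondaebo-tang and 1 in Palmul-tang. The share of all genes tested at this looser limit was not counted, so these counts have nothing to be set against.

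Extracts whose libraries carry the same set of sample codes were compared directly. The change with dose was larger for Glycyrrhizae than for Ginseng for all 8 genes, in a test of the difference in which 9.72% of all genes tested were higher. The difference was 2.78 ± 0.10 for PCK2 and 2.59 ± 0.07 for ASNS, 2.14 ± 0.07 for PHGDH, 1.72 ± 0.07 for ALDH1L2 and 1.59 ± 0.10 for PSAT1. It was 1.56 ± 0.08 for MTHFD2, 0.90 ± 0.14 for PSPH and 0.83 ± 0.06 for SHMT2, and the edgeR adjusted p ran from 3.84e-30 for ASNS to 3.92e-06 for PSPH. Poria and Atractylodis were not distinguished for any of the 8 genes (0 called by edgeR, 1 of 8 at an unadjusted p under 0.05, and 0.0732% of all genes tested called in either direction). The 1 gene was SHMT2, with a difference of 0.22 ± 0.06, a 95% interval of 0.10 to 0.35 and an edgeR adjusted p of 0.217, which DESeq2 put at 0.036. For PHGDH, called in both extracts, the interval of the difference was -0.09 to 0.18. Between Sibjeondaebo-tang and Palmul-tang 0 of 8 were called by edgeR or DESeq2, with 0% of all genes tested called by edgeR and 1 of 8 at an unadjusted p under 0.05. That was ASNS, with a difference of -0.18 ± 0.08 and a 95% interval of -0.35 to -0.01, and the interval for PHGDH was -0.12 to 0.19. How many of all genes tested had an unadjusted p under 0.05 in these differences was not counted.

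High-dose Paeoniae, with 1 library per dose and so no test, gave values for 5 of the 8 genes that were above all 56 libraries other than those of high-dose Glycyrrhizae. How many of all genes tested lay above those 56 libraries in this way was not counted. ASNS had 89 CPM at high dose and 32.6 CPM at low dose, and MTHFD2 had 193 CPM against 71.8 CPM. PCK2 had 39.7 CPM against 17.2 CPM, PSAT1 147 CPM against 80.9 CPM and PHGDH 36 CPM against 22.4 CPM. On the scale of log2(CPM + 1) these are differences of 1.42, 1.41, 1.16, 0.85 and 0.66, all past 1.5-fold, as were 9.61% of all genes in this direction. The highest of the 56 other libraries had 39 CPM for ASNS, 101 CPM for MTHFD2, 24.2 CPM for PCK2, 109 CPM for PSAT1 and 32.2 CPM for PHGDH.

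The remaining 3 genes did not show this. ALDH1L2 had 38.9 CPM at both high and low dose of Paeoniae, SHMT2 had 155 CPM at high and 162 CPM at low dose, and PSPH had 17.9 CPM at high and 17.5 CPM at low dose. The same 3 genes were all called higher with Glycyrrhizae, where ALDH1L2 matched MTHFD2 in its log2 change. At medium dose of Paeoniae 0 of the 8 genes were past 1.5-fold from low dose. ASNS had 32.7 CPM at medium and 32.6 CPM at low dose, PHGDH 23.1 and 22.4 CPM, PSAT1 92.4 and 80.9 CPM, MTHFD2 85.4 and 71.8 CPM, and PCK2 19.9 and 17.2 CPM. Over the 8 genes the median log2 difference between high and low dose was 0.75, against -0.00 over all genes. High-dose Paeoniae also had 349 CPM of ATF4 against 191 CPM at low dose, 176 against 38.8 CPM of TRIB3 and 16.3 against 5.69 CPM of DDIT3. For SHMT1 it had 174 against 217 CPM, for MTHFD1L 36.3 against 26.3 CPM, and for ALDH1L1 3.94 against 1.45 CPM, the highest ALDH1L1 level of the 60 libraries. CBS had 18 CPM at high and 14.5 CPM at low dose, and PYCR1 49.9 and 41.2 CPM. The high-dose library had 22441193 counts and 24.3% from mitochondrially encoded genes, the low-dose library 22002808 counts and 25.9%. Since 1 library stands for each dose, the dose and the library cannot be told apart.

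**Figure D4:**
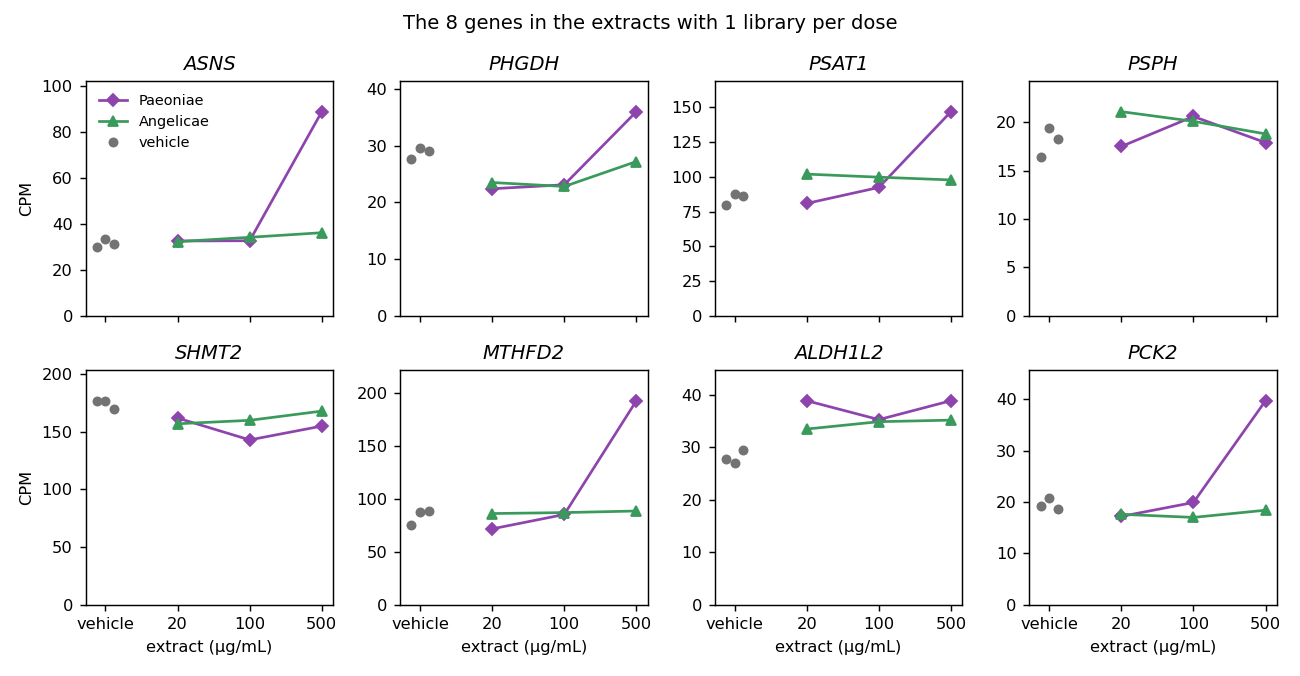
Level of each of the 8 genes (CPM, linear axis from 0) in the 3 vehicle libraries and in the single libraries of Paeoniae (diamonds) and Angelicae (triangles) at 20, 100 and 500 µg/mL. ASNS, PHGDH, PSAT1, MTHFD2 and PCK2 are highest in the Paeoniae library at 500 µg/mL, while PSPH, SHMT2 and ALDH1L2 are not raised over low dose there.

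With Angelicae, also 1 library per dose, 0 of 8 genes moved past 1.5-fold between high and low dose, beside 0.777% of all genes. The log2 differences lay between -0.16 for PSPH and 0.20 for PHGDH, with a median of 0.06.

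The low doses differed from the vehicle for 3 of the genes when the mean of the 6 replicated low-dose groups was set against the vehicle. ALDH1L2 was higher at low dose (log2 change 0.28 ± 0.04, edgeR adjusted p = 3.23e-06), where 16.9% of all genes tested were higher. Its vehicle libraries had 27.8, 27.1 and 29.6 CPM. PHGDH fell by 0.23 ± 0.04 (edgeR adjusted p = 3.67e-06) and SHMT2 by 0.08 ± 0.03 (edgeR adjusted p = 0.0478), where 17.1% of all genes tested were lower. The SHMT2 call was lost with RLE size factors (adjusted p = 0.0551), without the filter on low counts (0.203), when only the compared groups were fitted (0.0776) and without vehicle replicate 1 or 2 (0.182 and 0.181). It was also lost without 1 low-dose library of Sibjeondaebo-tang (replicate 2), Palmul-tang (3), Poria (1), Atractylodis (1 or 2), Glycyrrhizae (2 or 3) or Ginseng (2 or 3), at an adjusted p of 0.0501 to 0.066. The vehicle libraries carry a code set of their own, so treatment and code set cannot be told apart in this comparison. For PHGDH every low-dose library of the 6 extracts lay below the vehicle libraries (27.6, 29.6 and 29 CPM). The share of all genes tested that were apart from the vehicle in this way was not counted. It was not counted either for SHMT2 and ATF4, whose low-dose Glycyrrhizae libraries lay below the vehicle.

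Summed over the 8 genes, the level was 1444 to 1540 CPM in the high-dose Glycyrrhizae libraries and 716.5 CPM in the high-dose Paeoniae library. All the other libraries lay between 442.2 CPM, a low-dose Sibjeondaebo-tang library, and 536.1 CPM, a high-dose Poria library. Over the 25 group means the pairwise Pearson r of the genes' log2 levels was 0.65 to 0.98 with a median of 0.90, and over the 22 groups without Glycyrrhizae it was -0.54 to 0.95 with a median of 0.30. Each gene's group means come from the same libraries and scaling, so these r are descriptions across groups, with no p.

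**Figure D5:**
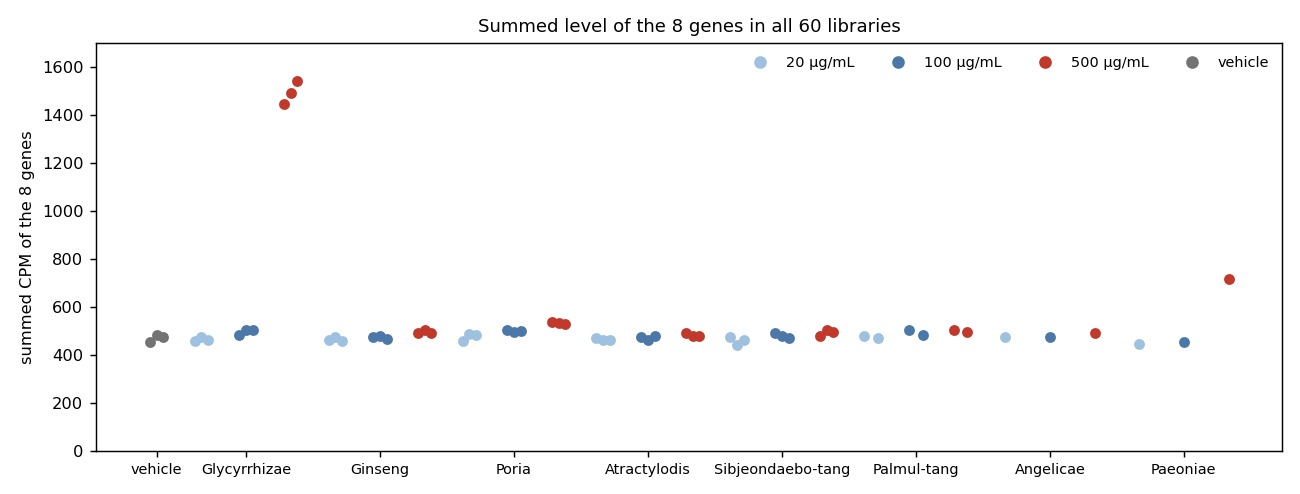
Summed CPM of the 8 genes in each of the 60 libraries, by extract and dose (points, linear axis from 0). The 3 high-dose Glycyrrhizae libraries lie at 1444 to 1540 CPM, the high-dose Paeoniae library at 716.5 CPM, and the rest between 442.2 and 536.1 CPM.

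The mean log2 profile of the 8 genes, centred over the groups, was 1.69 at high-dose Glycyrrhizae, 0.49 at high-dose Paeoniae and -0.20 to 0.02 elsewhere. An r over all 25 groups therefore rests mostly on high-dose Glycyrrhizae. The genes outside the 8 whose group profile was most like their mean profile were found by Pearson r over the 25 groups. They were GARS1 and AARS1 (r = 0.989 each), CARS1 (0.983), IFRD1 (0.973), EEF1A2 and KIF21B (0.969 each), SARS1 (0.966) and CEBPG (0.965), of which GARS1, AARS1, CARS1 and SARS1 encode aminoacyl-tRNA synthetases. Over the 22 groups without Glycyrrhizae, where the high-dose Paeoniae library weighs most, they were CHSY1 (0.980), POFUT1 (0.977), SLC39A14 (0.970), CEBPG (0.962), NPC1 (0.959), STC2 and RPN1 (0.958 each) and SLC7A1 (0.957). CEBPG, a C/EBP factor known to pair with ATF4, was in both.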

How the data were processed

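The submitters' processing notes list FastQC 0.11.9, Trim Galore 0.6.5, STAR 2.7.3a and RSEM 1.3.3 as tools and GRCh38 as build. The authors deposited expected counts per gene. Annotation release and strand setting: not given in the sources used here. Of 270 columns, 60 belong to this series and 210 were not used. Of the values above 0, 76.0% were whole within 1e-09, and all were rounded. Symbols came from a gene name table (56558 identifiers) and GENCODE 29 (497).

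In edgeR 4.0.16 (R 4.3.3), filterByExpr kept 17765 genes, TMM set the scale, and glmQLFit after estimateDisp fitted a mean for each group over the 60 libraries together, with 35 residual degrees of freedom and a common coefficient of variation of 5.59%. Each SE is the size of the log2 change over the root of its F. CPM use the TMM-scaled totals. Angelicae and Paeoniae, with 1 library per dose, were described by log2(CPM + 1) and a limit of 1.5-fold. In the 51 pairs of replicates, chi-square divided by its degrees of freedom was 2.61 to 37, above sampling noise in every pair. Known changes simulated in 200 genes were used to test the fits.

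The 8 genes, the lists and the tests were chosen with earlier results of these data known. The text names the 8 genes, the listed relatives, ATF4 and DDIT3, up to 4 genes per list with the smallest adjusted p at high against low dose of Glycyrrhizae, and the 8 genes of highest Pearson r. Named outside this rule are NOPCHAP1, which overlaps ALDH1L2, and the cell type markers. TYMS, ADSL, PAICS and PFAS are named for their calls in other extracts. The values of SHMT1, MTHFD1L, ATF4 and TRIB3 under the other observations were also picked by their calls. Same-numbered libraries deviated together (every correlation over 0.1) in Glycyrrhizae medium against low (0.20 to 0.63) and high against medium (0.23 to 0.51), Ginseng high against low (0.18 to 0.30) and medium against low (0.33 to 0.40), and Poria high against low (0.11 to 0.33). A positive control named in the series text was not analysed here. The alternatives were leaving out each library, a replicate block, fitting the compared groups alone, testing unfiltered genes, RLE scaling and DESeq2 1.42.0.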

Additional observations from a re-analysis of the deposited data

Results flagged for a closer look

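The change between high and low dose differed between Glycyrrhizae and Ginseng for each of the 8 genes in a test of the difference itself (quasi-likelihood test of edgeR, Benjamini-Hochberg adjusted p under 0.05), with every high-dose Glycyrrhizae library above every low-dose one. The log2 differences were 2.78 for PCK2, 2.59 for ASNS, 2.14 for PHGDH, 1.72 for ALDH1L2, 1.59 for PSAT1, 1.56 for MTHFD2, 0.90 for PSPH and 0.83 for SHMT2. Both extracts share a set of sample codes, and 21.0% of all genes tested differed in either direction.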

How the results depend on the processing

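At high against low and high against medium dose of Glycyrrhizae, and in the difference between Glycyrrhizae and Ginseng, 8 of 8 genes were called under every alternative, leaving out each library included. Of 1700 values of the 8 genes, 1578 kept direction and call, 78 uncalled ones changed sign, 40 lost and 4 gained a call, and 0 called ones reversed. Without the filter on low counts 0 of 8 were called in Atractylodis and 0 in Palmul-tang, and all called genes were 215 in Atractylodis in place of 37, 210 at medium-dose Glycyrrhizae in place of 140, 174 in the difference of Poria and Atractylodis in place of 13 and 62 in that of Sibjeondaebo-tang and Palmul-tang in place of 0. DESeq2 called 67 in Atractylodis, 43 and 1 in these differences, and at medium against low dose 25 in Sibjeondaebo-tang in place of 14 and 3 each in Ginseng and Palmul-tang in place of 0. With only the compared groups fitted the count was 0 in Ginseng, Atractylodis, Sibjeondaebo-tang and Palmul-tang and 0 at medium against low dose of Glycyrrhizae, and all called genes were 15 in place of 214 in Ginseng, 106 in place of 275 in Poria, 18 in place of 37 in Atractylodis, 267 in place of 672 in Sibjeondaebo-tang, 484 in place of 370 in Palmul-tang, 7 in place of 140 at medium-dose Glycyrrhizae, 7 in place of 14 at medium-dose Sibjeondaebo-tang, 9 in place of 0 at medium-dose Palmul-tang and 3 in place of 13 in the difference of Poria and Atractylodis. With the replicate block 2 of 8 were called in Palmul-tang and 3 at medium against low dose of Glycyrrhizae, and no other call of the 8 genes changed. All called genes were then 209 in place of 140 at medium-dose Glycyrrhizae and 459 in place of 275 in Poria. They were 88 in place of 37 in Atractylodis and 557 in place of 370 in Palmul-tang. In the difference of Poria and Atractylodis 36 were called in place of 13. DESeq2 called 1 of 8 in the difference of Poria and Atractylodis. Leaving out 1 library gave 0 to 1 of 8 in Ginseng, 1 to 2 in Poria, 0 to 1 in Atractylodis, 1 in Sibjeondaebo-tang, 0 in Palmul-tang, 0 to 1 at medium against low dose of Glycyrrhizae and 2 to 3 at low dose against vehicle. The causes were not tested. PSPH and PCK2 had as few as 336 and 344 counts in a library, which limits small changes.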

Other observations

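Folate genes outside the 8 moved with other extracts, by small amounts (TYMS and the purine synthesis genes were chosen after their values were seen). TYMS, the thymidylate synthase that uses a folate one-carbon unit to make a DNA building block, was higher at high than at low dose of 3 extracts. TYMS had 56.7 ± 0.747 CPM at high and 43.5 ± 2.33 CPM at low dose of Sibjeondaebo-tang (SD, n = 3 each, log2 change 0.38 ± 0.05, edgeR adjusted p = 1.64e-06). It rose by 0.31 ± 0.06 in Palmul-tang (edgeR adjusted p = 0.00169) and by 0.19 ± 0.05 in Poria (edgeR adjusted p = 0.0282). In the vehicle TYMS had 54.5 ± 3.37 CPM (SD, n = 3), near the high dose of Sibjeondaebo-tang. These TYMS calls therefore describe high against low dose only. Of 6 purine synthesis genes, 3 were higher in Sibjeondaebo-tang (ADSL, PAICS and PFAS) and 1 in Palmul-tang (PAICS), with 0 lower in either. Of all genes tested 2.35% were higher in Sibjeondaebo-tang and 1.29% in Palmul-tang.

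SHMT1 was lower at high dose with Ginseng (210 ± 9.68 CPM at high and 237 ± 3.56 CPM at low dose, SD, n = 3 each, log2 change -0.18 ± 0.04, edgeR adjusted p = 0.00345) and with Palmul-tang (log2 change -0.18 ± 0.04, edgeR adjusted p = 0.015). MTHFD1L was higher with Sibjeondaebo-tang (31.1 ± 1.08 CPM at high and 25.7 ± 0.654 CPM at low dose, SD, n = 3 each, log2 change 0.27 ± 0.06, edgeR adjusted p = 0.00189). Of the 19 regulators, ATF4 was the 1 called in Ginseng (log2 change 0.19 ± 0.05, edgeR adjusted p = 0.0345). TRIB3 was the 1 called in Poria (0.22 ± 0.06, edgeR adjusted p = 0.0326). Of all genes tested 1.20% were called in either direction in Ginseng and 1.55% in Poria. ATF4 had 203 ± 1.42 CPM at high and 178 ± 14.9 CPM at low dose of Ginseng, and 220 ± 12 CPM in the vehicle (SD, n = 3 each). The calls in this and the preceding paragraph were not repeated under the alternative settings.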
